A study of Mus musculus with 12 samples.

Results

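Livers of mice given siRNA against Eif3m were compared with livers of mice given a control siRNA by the depth of sequencing reads along the precursor of ribosomal RNA (rRNA). These 6 libraries of the 12 in the series were taken by their labels, 3 from control livers and 3 from Eif3m siRNA livers. The mice were of the FVB/N strain and aged 6 to 8 weeks. Both groups received siRNA in LNP (lipid nanoparticle) formulations by tail vein at 0.5 mg/kg, for 13 days. The control siRNA is labelled as scrambled luciferase, and the other as eIF3m. RNA came from whole frozen liver that had been ground, so it pools hepatocytes with the other cells of the organ. The remaining 6 libraries come from a hepatoma line of the mouse, Hepa1c1c7, and hold RNA from a nuclear purification kit. The labels call the libraries replicates but do not say that each came from its own mouse. The p-values below therefore measure the spread between these libraries, which may be partly technical.

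Eif3m encodes a subunit of eIF3, the complex that helps the small ribosomal subunit load onto messenger RNA. Ribosomes are built around rRNA, and 18S, 5.8S and 28S rRNA are cut from 1 long transcript. In that transcript they are framed by spacers: an external transcribed spacer at the 5′ end (5′ETS), which precedes 18S, internal transcribed spacers 1 and 2 (ITS1 and ITS2) on either side of 5.8S, and an external transcribed spacer at the 3′ end (3′ETS), which follows 28S. Spacers are removed by cleavage and trimming in the nucleolus and nucleus and are then degraded, whereas the mature rRNAs persist in the cytoplasm. An early cut near the start of the 5′ETS removes a leader, later cuts release the rest of the 5′ETS, and cutting in ITS1 parts the precursor of the small subunit from that of the large one. 18S belongs to the small subunit, and 5.8S and 28S to the large one. Since mature rRNAs persist while spacers are degraded, spacers are expected to be a small part of the rRNA of whole tissue.

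Depth was measured at 13400 consecutive positions of 1 reference, and averaged 26971 to 44498 reads a position in the control livers and 41958 to 46799 in the Eif3m siRNA livers. No pair of the 12 libraries held identical values. The files hold depth on rRNA alone, so neither the identity of the tissue nor the level of Eif3m messenger RNA could be checked. Edges were read from steps in depth. They gave 18S the span from 4006 to 5882, and 28S that from 8121 to 12837, with 5.8S (6877 to 7029) between them. A further step split the 5′ETS into a leader of 650 nt and the 3355 nt that follow. Within the leader, positions 414 to 449 carried a narrow spike of high depth, which is treated apart. Scaled depth means reads per position after each library was brought to the same summed depth, the mean of the 6 livers. In bulk tissue, fewer cells of a type and less RNA per cell cannot be told apart.

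**Figure D1:**
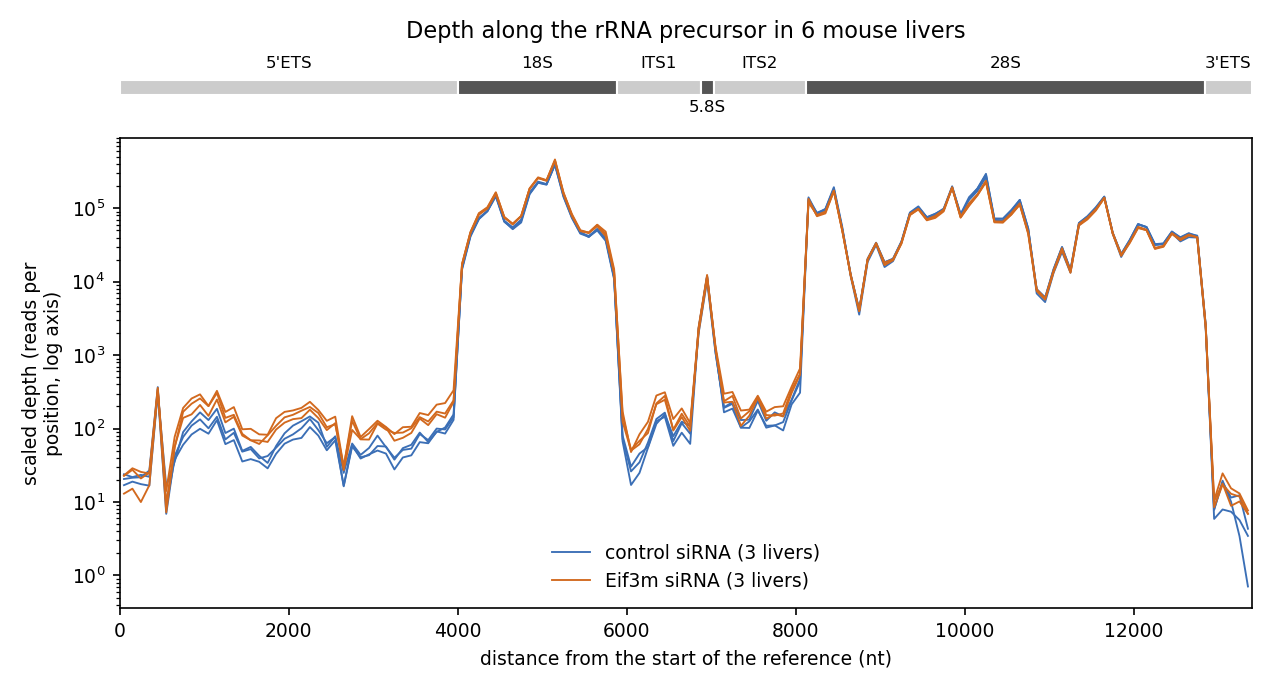
Scaled depth in reads per position (log axis) against distance from the start of the reference in nt, in bins of 100 nt, with 1 line for each liver. The 3 Eif3m siRNA lines lie above the 3 control lines over the 5′ETS after its leader and over the first part of ITS1, and close to them over 28S.

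Spacer RNA was deeper relative to mature rRNA in the Eif3m siRNA livers. Mean spacer depth was 0.119%, 0.128% and 0.103% of mean mature depth in control replicates 1, 2 and 3. In Eif3m siRNA replicates 1, 2 and 3 it was 0.211%, 0.180% and 0.165%. The lowest Eif3m siRNA liver thus stood above the highest control liver. The log2 difference was 0.67 ± 0.13 (SE, n = 3 each; limma adjusted p = 0.014; exact two-sided permutation p = 0.1, the smallest that 3 against 3 allows). Spacers remained rare in both groups, at 0.115% ± 0.012 and 0.182% ± 0.023 of summed depth (SD, n = 3 each). The 27 ratios between regions that were tested gave 14 calls (51.9%), 12 higher (44.4%) and 2 lower (7.41%), at a limma adjusted p under 0.05. Without Eif3m siRNA replicate 1, 7 were called higher, and without replicate 2, 5.

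The rise was not spread evenly over the 5′ETS: the leader did not pass the test, and the segment after it rose. After the leader, depth was 0.0733%, 0.0828% and 0.0607% of 18S depth in the controls and 0.137%, 0.118% and 0.102% in the Eif3m siRNA livers. The log2 difference was 0.72 ± 0.16 (SE; limma adjusted p = 0.014; exact permutation p = 0.1), and the groups did not overlap. The call was lost without Eif3m siRNA replicate 2 (0.72, adjusted p = 0.054), as was that on the whole 5′ETS over 18S (0.61, adjusted p = 0.054). The leader without its spike stood at 0.0178%, 0.0169% and 0.0190% of 18S in the controls and at 0.0190%, 0.0171% and 0.0112% after Eif3m siRNA. These groups overlapped, with a difference of -0.22 ± 0.20 (SE; limma adjusted p = 0.44; exact permutation p = 0.6). Its lowest value came from Eif3m siRNA replicate 3, without which the difference was 0.01. In scaled depth the leader without its spike differed by -0.04 ± 0.23 (SE, log2; exact permutation p = 0.9). Over 28S it differed by 0.07 ± 0.23 (SE, log2; exact permutation p = 0.8), so the sign depends on what the leader is set against. Before scaling, the leader without its spike was shallow, at 11.8 to 26.5 reads per position.

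Set directly against each other, the leader without the spike was 0.243, 0.204 and 0.313 times as deep as the rest of the 5′ETS in the control livers. In the Eif3m siRNA livers the ratio was 0.139, 0.144 and 0.111, below all controls. The log2 difference of -0.94 ± 0.19 (SE; limma adjusted p = 0.014; exact permutation p = 0.1) was the largest of the 27 ratios in size. The border was placed at a step in depth, so a rise across it follows from that choice. The 50 nt after it were 6.25, 4.52 and 3.46 times as deep as the 50 nt before it in the controls, and 8.13, 8.43 and 8.28 times after Eif3m siRNA. Before the border, scaled depth was 13.8 ± 2.7 and 13.7 ± 2.8 reads (SD, n = 3 each), and after it 63.4 ± 8.6 in control and 113 ± 22 in Eif3m siRNA livers.

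The spike in the leader gave 73.3% ± 0.85 of the leader's summed depth in control livers, against 74.7% ± 5.1 in those given Eif3m siRNA (SD, n = 3 each). Its scaled depth was 837, 819 and 977 reads per position in the controls and 895, 963 and 925 after Eif3m siRNA. The groups overlapped, and relative to 18S the difference was -0.09 ± 0.09 (SE, log2; limma adjusted p = 0.44; exact permutation p = 0.4).

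Downstream of the leader the rise ran along the whole 5′ETS. In 4 equal parts, scaled depth went from 95.7 to 185, from 73.4 to 130, from 54.8 to 100 and from 77.9 to 147 reads per position (group means). The corresponding log2 differences were 0.95 ± 0.21, 0.83 ± 0.19, 0.87 ± 0.13 and 0.90 ± 0.15 (SE), and in each part all Eif3m siRNA livers were above all control livers (exact permutation p = 0.1 each). Its 5′ part over its 3′ part, split at the middle, gave 0.01 ± 0.09 (SE, log2; limma adjusted p = 0.90; exact permutation p = 0.9). At single positions, Eif3m siRNA livers were all above control livers at 3204 of 3355 positions after the leader (95.5%) and at 0 of 650 in the leader. They were all below control livers at 27 positions of the leader (4.15%). Over the whole reference they were all above at 49.2% of positions and all below at 18.1%. Neighbouring positions share reads.

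ITS1, between 18S and 5.8S, rose as well. As a whole it stood at 0.0894%, 0.0905% and 0.0779% of 18S depth in control livers, against 0.144%, 0.116% and 0.116% in those given Eif3m siRNA. The log2 difference was 0.54 ± 0.11 (SE; limma adjusted p = 0.014; exact permutation p = 0.1), with no overlap. It was cut into 3 equal parts. In the first, scaled depth was 46.6, 39.8 and 54.1 reads per position in the controls and 107, 82.1 and 94.5 after Eif3m siRNA, a difference (log2) of 1.02 ± 0.17 (SE; exact permutation p = 0.1). The second part differed by 0.85 ± 0.12 (SE; exact permutation p = 0.1). In the last part, depth was 118, 132 and 87.9 in the controls and 171, 144 and 135 after Eif3m siRNA, a difference of 0.43 ± 0.20 (SE; exact permutation p = 0.1). In scaled depth the groups were apart in all 3 parts, but by a narrow gap in the last. Over 18S the first and second parts remained apart (0.84 ± 0.16 and 0.68 ± 0.12, SE, log2; exact permutation p = 0.1 each), and the last part overlapped (0.25 ± 0.21; exact permutation p = 0.4).

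Along the 9 bins of ITS1, the log2 changes from the 5′ to the 3′ end were 1.00, 1.03, 1.02, 0.80, 0.91, 0.84, 0.65, 0.57 and 0.34, and the last did not pass the test. The decline was tested as the ratio of the first part to the last, which was 0.394, 0.302 and 0.615 in controls and 0.625, 0.571 and 0.699 after Eif3m siRNA. These groups overlapped through control replicate 3, and the difference of 0.59 ± 0.26 did not pass (SE, log2; limma adjusted p = 0.12; exact permutation p = 0.2). Without that control it was 0.87 (limma adjusted p = 0.022), and without control replicate 2 it was 0.35, the lowest value with any 1 library left out. The decline along ITS1 is therefore a pattern of the group means that did not pass its test with all 6 livers.

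**Figure D2:**
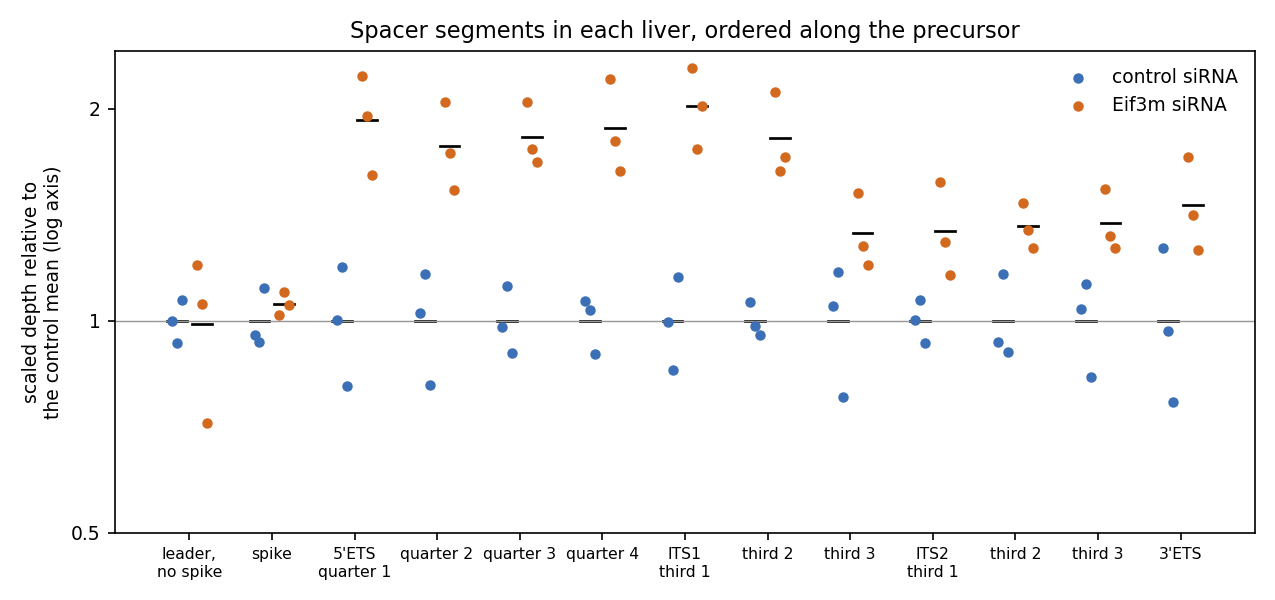
Scaled depth of spacer segments in each liver relative to the control mean of that segment (log axis), with segments in their order along the precursor. Points are single livers and black lines are group means (n = 3). The leader and its spike overlap between groups; the 4 parts of the 5′ETS after the leader and the first and second parts of ITS1 lie clearly apart, the gap is narrower in the last part of ITS1 and in ITS2, and the 3′ETS overlaps.

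ITS2, the spacer between 5.8S and 28S, rose relative to 28S, and by less than the 5′ETS after its leader. It stood at 0.289%, 0.319% and 0.252% of 28S depth in the controls and at 0.477%, 0.405% and 0.388% in the Eif3m siRNA livers. The log2 difference was 0.56 ± 0.12 (SE; limma adjusted p = 0.014; exact permutation p = 0.1). This is relative to 28S, which itself fell in share. In scaled depth ITS2 differed by 0.45 ± 0.14 (SE; exact permutation p = 0.1). Over 18S, the denominator used for the 5′ETS and ITS1, it stood at 0.194%, 0.221% and 0.169% in the controls and at 0.263%, 0.230% and 0.210% after Eif3m siRNA. There the groups overlapped, with a difference of 0.27 ± 0.15 (SE, log2; exact permutation p = 0.2), so the separation of ITS2 depends on what it is set against. In scaled depth its 3 equal parts differed by similar amounts, 0.42 ± 0.14, 0.45 ± 0.13 and 0.47 ± 0.16 (SE), and the first over the last gave -0.05 ± 0.09 (limma adjusted p = 0.67; exact permutation p = 0.7).

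Spacers were also set against each other, which leaves mature rRNA out. Of the 5′ETS after the leader, ITS1 and ITS2, only the first over the last was called in every fit with 1 library left out. The 5′ETS after the leader over ITS2 was 0.377, 0.375 and 0.360 in control livers, against 0.520, 0.514 and 0.484 in those given Eif3m siRNA. This log2 difference, 0.45 ± 0.06 (SE), had the lowest adjusted p of the 27 ratios (limma adjusted p = 0.0095; exact permutation p = 0.1). With 1 library left out it was 0.43 to 0.48. ITS1 over ITS2 was 0.460, 0.410 and 0.462 in the controls and 0.546, 0.505 and 0.553 after Eif3m siRNA, a difference of 0.27 ± 0.08 (SE; limma adjusted p = 0.035; exact permutation p = 0.1). That call was lost in 5 of 6 fits with 1 library left out, that without control replicate 3 being the exception, at 0.21 to 0.31. The 5′ETS after the leader over ITS1 gave 0.18 ± 0.09 (SE; limma adjusted p = 0.18; exact permutation p = 0.2), and was called with median in place of mean depths (0.24, limma adjusted p = 0.033).

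The make-up of spacer depth differed between the groups. The 5′ETS after the leader gave 41.3% ± 1.5 of all spacer depth in control livers, against 48.4% ± 1.2 in those given Eif3m siRNA (SD, n = 3 each). ITS2 gave 36.2% ± 0.65 and 31.1% ± 0.45, the leader with its spike 7.15% ± 1.45 and 4.64% ± 0.43, and ITS1 14.6% ± 0.73 and 15.2% ± 0.84. All of these but ITS1 were without overlap between the groups (exact permutation p = 0.1 each). These shares sum to the whole, so a gain in 1 lowers the others.

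The 3′ETS was the shallowest region, at 5.37 to 16.5 reads per position before scaling. It stood at 0.0147%, 0.0111% and 0.00890% of 28S depth in the controls and at 0.0214%, 0.0175% and 0.0159% after Eif3m siRNA, with no overlap. The log2 difference of 0.68 ± 0.21 passed narrowly (SE; limma adjusted p = 0.041; exact permutation p = 0.1). It was 0.22 (limma adjusted p = 0.28) with 10 reads added to each depth, and 5 of 6 fits with 1 library left out lost the call. In scaled depth the groups overlapped, at 10.4, 7.92 and 6.27 against 14.0, 11.6 and 10.3 reads per position.

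Mature 18S took a larger share of depth in the Eif3m siRNA livers and 28S a smaller one. 18S held 37.0%, 36.3% and 37.2% of summed depth in control livers, against 41.7%, 41.0% and 42.1% in those given Eif3m siRNA. 28S held 62.6%, 63.3% and 62.4% in the controls and 57.8%, 58.6% and 57.4% after Eif3m siRNA. The spread within a group (SD 0.45 and 0.59 percentage points for 18S) was far smaller than the gap of 4.76 percentage points between the means, and the groups did not overlap. The ratio of mean depths, 18S over 28S, was 1.487, 1.443 and 1.498 in the controls and 1.814, 1.757 and 1.845 after Eif3m siRNA, with a difference (log2) of 0.29 ± 0.05 (SE; limma adjusted p = 0.014; exact permutation p = 0.1). It stayed at 0.27 to 0.31 and kept its call in all 6 fits with 1 library left out. Since the 2 shares make up nearly all depth, a fall of 28S cannot be told apart from a rise of 18S.

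5.8S, which pairs with 28S in the large subunit, was without a call in its ratio to 28S. It held 0.282%, 0.244% and 0.285% of summed depth in control livers, against 0.281%, 0.261% and 0.294% in those given Eif3m siRNA, and these values overlapped. Over 28S it gave 0.139, 0.119 and 0.141 against 0.1498, 0.1374 and 0.1581, a difference (log2) of 0.16 ± 0.10 (SE; limma adjusted p = 0.23; exact permutation p = 0.3). Control replicate 2 was the lowest of the 6 livers, and without it the difference was 0.08. The bin at 6901 to 7000, inside 5.8S, was called higher with libraries scaled to 28S depth (0.16, limma adjusted p = 0.017). So were 63.4% of all 131 bins tested under that scaling. With summed depth this bin was not called (0.05, limma adjusted p = 0.46). With median-of-ratios scaling it was called lower (-0.13), as were 38.9% of all bins tested.

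**Figure D3:**
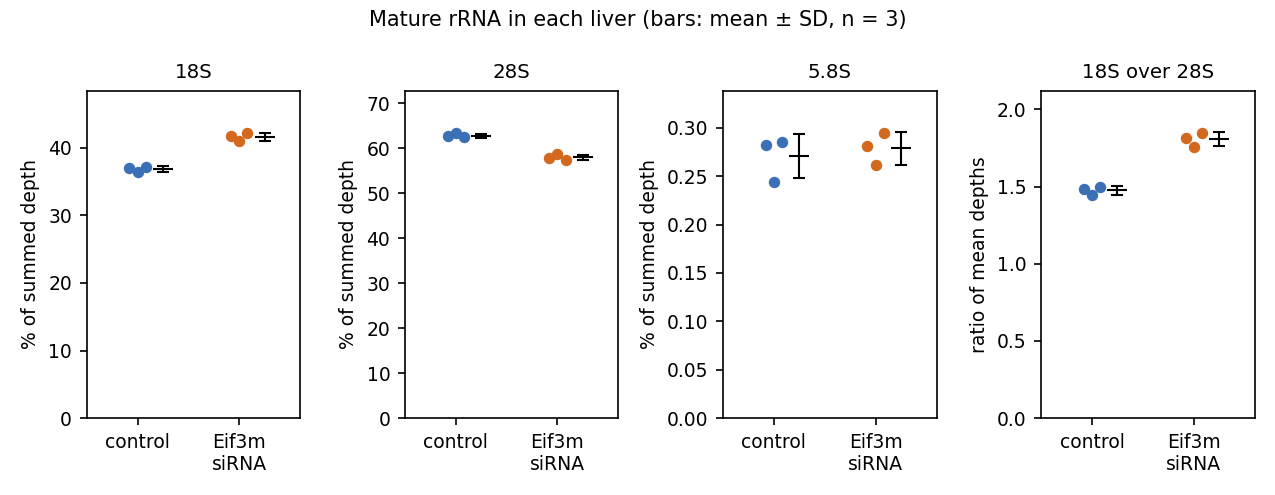
Share of summed depth in 18S, 28S and 5.8S (percent) and the ratio of mean depths of 18S and 28S, with 1 point for each liver and the mean ± SD beside them (n = 3). The 18S and 28S groups are apart, at 36.9% and 41.6% for 18S, while the 5.8S values overlap.

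With libraries scaled to summed depth, the rise of 18S ran along its whole length (it was 0 of 17 bins with median-of-ratios scaling), and the fall of 28S covered part of its bins. All 17 bins of 18S were called higher, against 52.7% of all 131 bins tested, with log2 changes of 0.09 to 0.24. With eBayes without a trend, 13 of these 17 were called higher, against 62 of all 131 bins. With median-of-ratios scaling 2 were called lower, against 51 of all 131. The 5′ and 3′ parts of 18S, split at the middle, differed by 0.18 ± 0.02 and 0.17 ± 0.02 (SE), and their ratio gave 0.01 ± 0.05 (limma adjusted p = 0.90; exact permutation p = 0.6). In 28S, 24 of 46 bins were called lower, against 19.1% of all bins tested, and 0 were called higher. Without a trend, 14 of the 46 were called lower, against 14 of all 131 bins. Changes of 28S bins ran from -0.28 to 0.03. Each bin's change depends on what the library is scaled to: relative to 28S depth all 17 bins of 18S were still called higher, and 3 of 46 bins of 28S lower and 11 higher (2.29% and 63.4% of all bins tested).

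Those 3 bins lie side by side. At 10001 to 10100, scaled depth was 134847, 141670 and 130525 reads per position in control livers, against 108534, 117023 and 109457 in those given Eif3m siRNA. Its log2 change was -0.28 ± 0.03 (limma's SE) with libraries scaled to summed depth, and -0.17 relative to 28S (limma adjusted p = 5.6e-05). The bins at 10101 to 10200 and 10201 to 10300 changed by -0.25 ± 0.03 and -0.28 ± 0.03, or by -0.14 and -0.16 relative to 28S. With summed depth and eBayes without a trend, the limma adjusted p of each of these 3 bins was 0.0082. The other 5 bins with large falls, at 10501 to 10800 and at 12001 to 12100 and 12201 to 12300, changed by -0.15 to -0.18 and were not called relative to 28S. When 28S was cut into 10 equal parts, the fifth, which runs from 10008 to 10478, was 2.20, 2.18 and 2.06 times as deep as 28S on average in the controls. After Eif3m siRNA it was 1.93, 1.98 and 1.99 times as deep, below every control (exact permutation p = 0.1). This part covers almost all of those 3 bins, which were named for their falls in these same livers, so it is no separate support. Such a separation was common among the parts. Part 9 was also below every control, and parts 2, 3, 4, 8 and 10 were above every control (exact permutation p = 0.1 each).

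Across the 46 bins of 28S, deeper bins had the larger falls (Pearson r = -0.66 and Spearman rho = -0.66 between log2 depth and log2 change). These bins share libraries and neighbouring bins share reads, so the value is a description. The 23 shallowest had a median change of -0.02 and the 23 deepest -0.11, over a 64.7-fold range of depth. Across the 17 bins of 18S the same correlation was 0.02. Depth along 28S was more even after Eif3m siRNA, with a coefficient of variation of 0.862 ± 0.010 against 0.908 ± 0.032 in controls (SD, n = 3 each; exact permutation p = 0.1). The 5′ part of 28S over its 3′ part, split at the middle, was 1.83, 1.76 and 1.76 in the controls and 1.73, 1.72 and 1.75 after Eif3m siRNA, without overlap but not called (-0.04 ± 0.05, SE, log2; limma adjusted p = 0.60; exact permutation p = 0.1). The part of such profile differences in the ratio of 18S to 28S was not tested.

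Ends of the mature rRNAs were read from the 20 nt outside over the 20 nt inside each edge. Precursor not yet trimmed would lie outside, but the edges are steps in depth and were not checked against an annotation. The outside windows may therefore hold ends of mature rRNA as well, and the part from precursor was not tested. Before 28S, this was 0.905%, 1.01% and 0.845% in control livers, against 1.26%, 1.17% and 1.08% in those given Eif3m siRNA, a difference (log2) of 0.35 ± 0.10 (SE; limma adjusted p = 0.032; exact permutation p = 0.1). After 5.8S it was 7.81%, 8.95% and 7.91% in the controls and 11.003%, 10.0% and 9.31% after Eif3m siRNA, a difference of 0.30 ± 0.09 (SE; limma adjusted p = 0.041; exact permutation p = 0.1). Before 18S it was 2.81%, 2.99% and 2.83% against 4.05%, 3.71% and 3.12%, a difference of 0.33 ± 0.11 (SE; limma adjusted p = 0.045; exact permutation p = 0.1). In all 3 the groups were apart.

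These calls were close to the threshold. Leaving out 1 library ended that before 28S in 4 of 6 fits, that after 5.8S in 4 and that before 18S in 5, with differences of 0.29 to 0.42, 0.24 to 0.36 and 0.24 to 0.43. With 10 reads added, the call before 18S was lost too (0.29, limma adjusted p = 0.056). The sizes depend on how the window is read: edges placed from the livers alone, at most 2 nt away, gave 0.72 before 18S and 0.62 before 28S, and median depths 0.78 and 0.65, all called. At the other 3 ends the groups overlapped. The 3′ end of 18S, from which the last precursor of the small subunit is trimmed in the cytoplasm, gave 7.26%, 7.73% and 7.84% in the controls and 8.45%, 6.90% and 7.84% after Eif3m siRNA. That difference was 0.02 ± 0.09 (SE, log2; limma adjusted p = 0.90; exact permutation p = 0.9). How much of the depth outside that end came from such precursor was not tested. The 5′ end of 5.8S gave 0.08 ± 0.14 (limma adjusted p = 0.67; exact permutation p = 0.7), and the 3′ end of 28S 0.92 ± 0.59 (limma adjusted p = 0.25; exact permutation p = 0.2). Without control replicate 3 the last of these was 1.46 (limma adjusted p = 0.049).

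Over the whole profile, limma called 69 of 131 bins higher and 25 lower with libraries scaled to summed depth. With median-of-ratios scaling there were 43 higher (32.8%) and 51 lower (38.9%), and relative to 28S depth 83 higher (63.4%) and 3 lower (2.29%). The median change of all bins was 0.18, 0.01 and 0.30 under these 3 scalings, and with median-of-ratios scaling 0 of 17 bins of 18S were higher and 46 of 46 of 28S lower. In the same order of scalings, bins of the leader were without a call (0 of 6 in each), and 33, 32 and 33 of the 33 bins after it were higher. ITS1 had 8, 7 and 8 of 9 bins higher and ITS2 8, 2 and 9 of 10. With summed depth and eBayes without a trend, ITS2 had 5 of 10, close to the share of all bins (62 of 131). Among the spacers, the count of ITS2 bins moved most with the scaling. In bins with a rise, limma's p-values take neighbours as separate although they share reads.

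**Figure D4:**
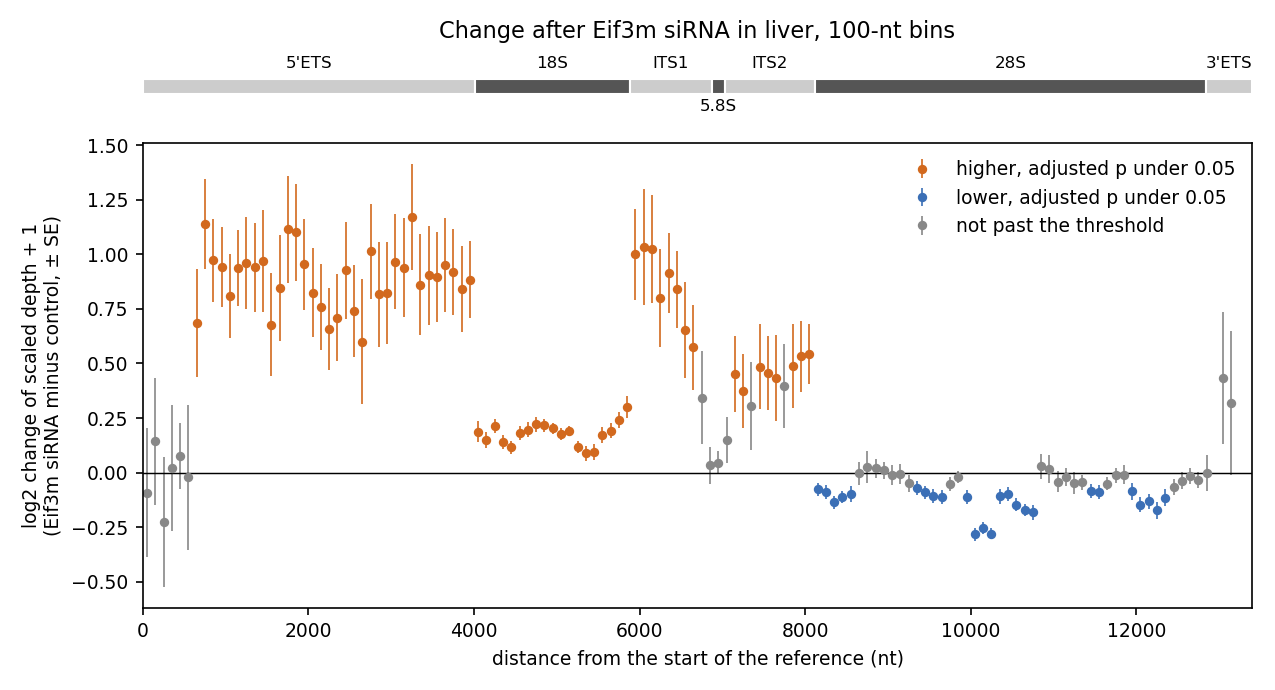
Log2 change of scaled depth (plus a pseudocount of 1) after Eif3m siRNA for each bin of 100 nt, against distance from the start of the reference in nt. Points are limma estimates ± SE from 3 against 3 livers, coloured by the call. Changes are near 0 in the leader, 0.60 to 1.17 in the rest of the 5′ETS, 0.34 to 1.03 in ITS1, 0.31 to 0.54 in ITS2 and -0.28 to 0.03 in 28S.

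The 8 bins with the largest rises lay in the 5′ETS after its leader and at the start of ITS1. At 3201 to 3300, scaled depth was 37.7, 40.0 and 27.8 reads per position in control livers, against 84.1, 87.1 and 68.3 in those given Eif3m siRNA, a log2 change of 1.17 ± 0.24 (limma's SE; limma adjusted p = 1.0e-05). At 701 to 800, just past the leader, it was 76.9, 89.7 and 60.2 against 191, 170 and 140, a change of 1.14 ± 0.20 (limma adjusted p = 4.1e-07). At 6001 to 6100 in ITS1 it was 26.1, 17.1 and 30.3 against 47.9, 50.1 and 51.5, a change of 1.03 ± 0.26 (limma adjusted p = 0.00025). With eBayes without a trend, the limma adjusted p of these bins was larger, at 0.0080, 0.0080 and 0.011 in that order. Bins were named only where the lowest Eif3m siRNA liver was above the highest control, so that separation is part of the choice. The other 5, at 1701 to 1900, 2701 to 2800, 5901 to 6000 and 6101 to 6200, changed by 1.00 to 1.11.

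Among the Eif3m siRNA livers, replicate 1 had the highest spacer depth and replicate 3 the lowest. Replicate 1 led in all 4 parts of the 5′ETS after the leader, in all 3 parts of ITS1 and of ITS2 and in the 3′ETS. Among the controls, replicate 3 had the lowest depth over all spacers. Without Eif3m siRNA replicate 1 the change of spacers over mature regions was 0.57, and over all 6 fits with 1 library left out it was 0.57 to 0.74, each with an adjusted p under the threshold (limma adjusted p = 0.017 to 0.045).

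Whether the liver change differed from that in Hepa1c1c7 cells was tested as an interaction over all 12 libraries, and limma called 16 of 27 ratios (59.3%), with liver above cells in 2 (7.41%) and below in 14 (51.9%). The cells received the same kinds of siRNA at 10 uM for 3 days. In them the leader without its spike stood at 0.313% ± 0.091 of 18S after control and 1.11% ± 0.11 after Eif3m siRNA (SD, n = 3 each). The log2 difference was 1.86 there and -0.22 in liver. Liver minus cells was -2.08 ± 0.33 (SE; limma adjusted p = 0.0027). For the 5′ETS after the leader it was -0.86 ± 0.25 (limma adjusted p = 0.015), from 1.58 in cells and 0.72 in liver. 18S over 28S differed by 0.29 ± 0.06 (limma adjusted p = 0.0065), from 0.01 in cells and 0.29 in liver, and the 5′ETS after the leader over ITS2 by 0.33 ± 0.07 (limma adjusted p = 0.0056), from 0.12 and 0.45. For ITS1 over ITS2 (0.20 ± 0.09, limma adjusted p = 0.067) and for the first over the last part of ITS1 (0.66 ± 0.29, limma adjusted p = 0.070), the difference did not pass. RNA fraction, dose, time and the growth of cells in culture differ together with the system and cannot be told apart.

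**Figure D5:**
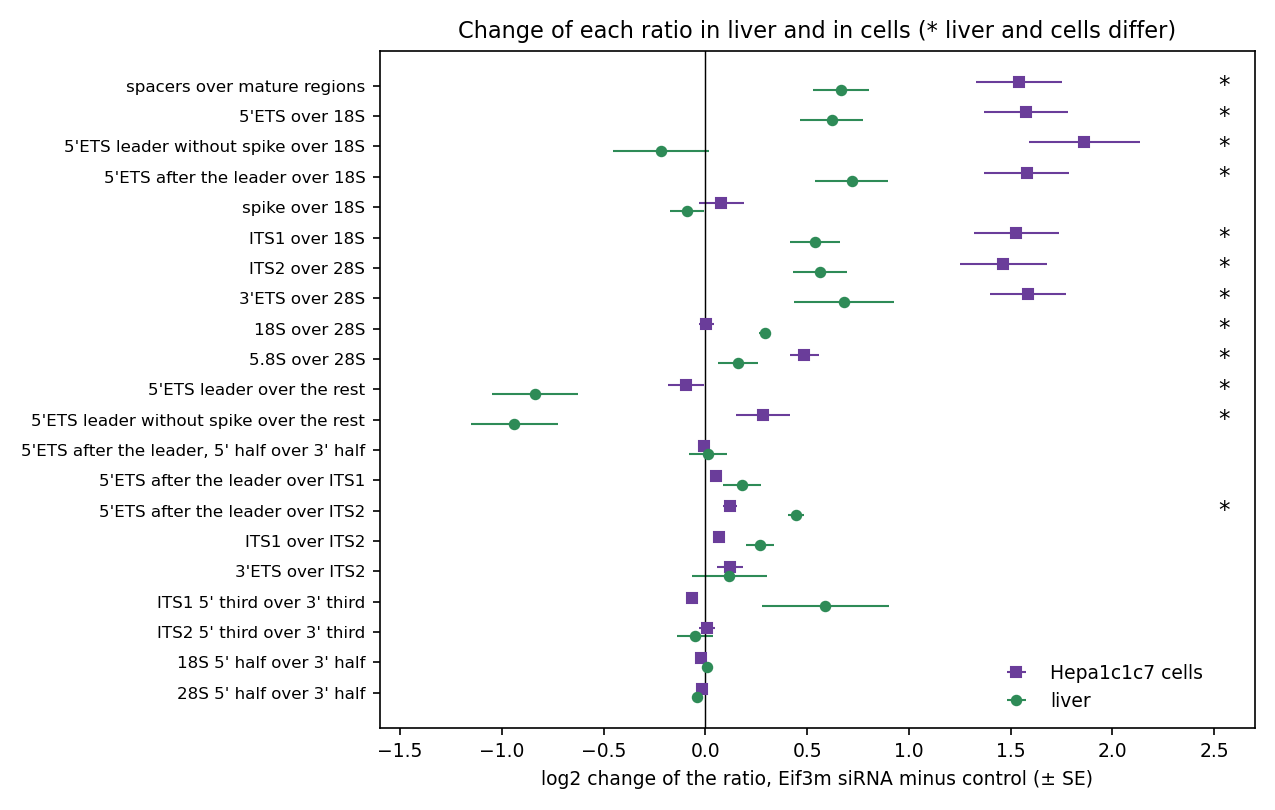
Log2 change of 21 ratios after Eif3m siRNA in liver (circles) and Hepa1c1c7 cells (squares), each with its SE from 3 against 3 libraries without limma's pooling; a star marks ratios for which liver and cells differ (limma adjusted p under 0.05). Spacers over mature regions changed by 0.67 in liver and 1.54 in cells, and the leader without its spike by -0.22 and 1.86.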

How the data were processed

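Depth along the rRNA precursor was analysed in 6 liver libraries (3 control, 3 Eif3m siRNA), with 6 libraries of cells for the test of the difference. The authors deposited coverage signal, the number of reads over each position, unscaled; the submitters' processing notes list SAMtools 1.3 and BWA 0.7.12, and per the labels' protocols libraries came from a Clonetech pico kit without ZapR, the step that removes rRNA. The sources used here do not state alignment options or how duplicates and multiply mapped reads were treated, and rRNA genes are repeated, so reads from different copies are pooled. Columns were matched to samples by the codes in their titles, and 85 empty cells, all in liver, were read as 0. A read covers many positions, so no counting interval was given.

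Edges were the largest steps of mean log2(depth + 1) over 20 nt in all 12 libraries. Bins of 100 nt (scaled to summed depth, pseudocount 1, mean depth of at least 10) and log2 ratios of mean depths were fitted with limma 3.58.1 (lmFit, eBayes, trend for bins) in R 4.3.3, with Benjamini-Hochberg adjustment over 131 bins or 27 ratios and a threshold of 0.05. Exact permutation p-values are two-sided and unadjusted, over 20 assignments. SEs of ratios are limma's; SEs of segments come from the libraries alone. Of bins, the 8 largest called rises and falls without overlap were named. Scripts were tested on simulated data. Members, regions and ratios were chosen with earlier results of these data known.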

Additional observations from a re-analysis of the deposited data

Results flagged for a closer look

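The results given here stand out because the change after Eif3m siRNA differed between liver and Hepa1c1c7 cells by limma's interaction term (adjusted p under 0.05 over 27 ratios). Liver minus cells, in log2 units, the 5′ETS leader without its spike over 18S differed by -2.08, the same leader over the rest of the 5′ETS by -1.22, and the leader with its spike over that rest by -0.74. Spacers over mature regions differed by -0.88, the whole 5′ETS over 18S by -0.96, the 5′ETS after the leader over 18S by -0.86, and ITS1 over 18S by -0.99. Relative to 28S, ITS2 differed by -0.90 and the 3′ETS by -0.90. Across ends of mature rRNA, outside over inside, the difference was -1.01 at the 5′ end of 28S, -0.76 at the 5′ end of 5.8S, -0.63 at the 5′ end of 18S and -0.40 at the 3′ end of 18S. 5.8S over 28S differed by -0.33. Liver was above cells for 18S over 28S, by 0.29, and for the 5′ETS after the leader over ITS2, by 0.33. The call was lost in 10 of 12 fits with 1 library left out for the 3′ end of 18S, in 8 for 5.8S over 28S and in 1 for the 3′ETS over 28S. With median in place of mean depths it was lost at the 5′ end of 18S (-0.23), the 5′ end of 5.8S (-0.54), the 3′ end of 18S (-0.47) and for 5.8S over 28S (-0.26), which was -0.0013 once mature depths were lowered by the mean depth of the spacers.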

How the results depend on the processing

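Bins called higher numbered 60 to 69 and lower 20 to 33 with 1 liver left out; median-of-ratios scaling gave 43 and 51, 28S scaling 3 lower and eBayes without trend 14 lower. With 1 liver left out, 5 to 10 ratios were called higher. ITS1 over ITS2 lost its call with edges placed from liver alone (0.24, limma adjusted p = 0.055) and had 0.21 to 0.31 with 1 liver left out. Direction and call of the named bins were kept in 96 of 96 fits with 1 liver left out and in 117 of 122 others. The remaining 5 were falls in 28S that lost the call with 28S scaling. The named bins were chosen as the largest called changes in these same livers, so a kept call is no separate support.

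Values near 0 changed sign. The 5′ over the 3′ part of the 5′ETS after the leader was -0.0040 with median depths, the 3′ end of 18S -0.025 with median depths, -0.081 with 10 reads added and -0.0050 with liver edges, and the 3′ETS over ITS2 -0.31 with 10 reads added (limma adjusted p = 0.035), since 3′ETS depth is near 10 reads. Without control replicate 1 the 3′ETS over ITS2 was 0.30 (limma adjusted p = 0.044). Ranges with 1 liver left out were -0.37 to 0.0075 for the leader without spike over 18S, -0.057 to 0.089 for the same 5′ over 3′ part, -0.094 to 0.025 for the first over the last part of ITS2, -0.0044 to 0.019 for the 5′ over the 3′ part of 18S, -0.049 to 0.097 for the 3′ end of 18S and -0.044 to 0.19 for the 5′ end of 5.8S.

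Whether replicate numbers pair the livers could not be settled with 3 livers in each group. Deviations of livers with the same number correlated at 0.28, -0.19 and 0.39. Control replicates 1 and 3 correlated best with the Eif3m siRNA liver of their own number, and control replicate 2 with Eif3m siRNA replicate 1. With the replicate block, 70 bins were higher and 27 lower, 11 ratios were called higher and 1 lower, the leader without spike over the rest had -0.94 (limma adjusted p = 0.0503), the ends before 18S and after 5.8S lost their calls (limma adjusted p = 0.060 each), the 5′ETS after the leader over ITS1 gained one (0.18, limma adjusted p = 0.044), and 4 differences from cells were called with liver above, against 2.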

Other observations

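The deepest position was the same, 5143 in 18S, in all 6 livers, at 350334 to 691208 reads, and in 2 of the 6 cell libraries it was that position too. Positions without any read numbered 0 to 56 per liver. The spike in the 5′ETS leader stood at 0.839% ± 0.075 of 18S depth in control livers and 2.38% ± 0.21 in control cells (SD, n = 3 each). In cells its log2 difference after Eif3m siRNA was 0.08, against 1.86 for the leader around it; neither was tested within the cells.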
